A study of Saccharomyces cerevisiae with 9 samples.

Results

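The 10 genes described here, HSP12, DDR2, TMA10, CYC7, HSP31, HSP26, MSC1, CTT1, HSP78 and HSP104, are genes of budding yeast (Saccharomyces cerevisiae) known to be induced by heat, oxidants, drying or starvation. They were taken by gene name from the deposited tables of transcript 3′ ends, in which 6516 features are listed in all, and each of the 10 was listed in all 3 tables. The tables come from direct RNA sequencing of total RNA on the Oxford Nanopore platform, in which a poly(A)-tailed RNA is read from its 3′ end, so that each read marks where a transcript ended. There were 9 libraries, 3 for each of 3 strains, all from cells given rapamycin for 2 h.

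All strains derive from HHY168 and are labelled as carrying fpr1delta::hphMX4, a deletion of the gene for the rapamycin-binding protein Fpr1. The group labelled WT has no further allele, Bdp1AA adds BDP1-FRB::kanMX6, and Bdp1AA Rna15AA, called the double depletion below, adds BDP1-FRB::kanMX6 and RNA15-FRB::His. In an anchor-away strain, the target protein carries an FRB tag, through which rapamycin couples it to an abundant anchor protein that leaves the nucleus. Bdp1 is part of TFIIIB, which recruits RNA polymerase III to tRNA genes. Rna15 is an RNA-binding subunit of cleavage factor IA, which takes part in cutting mRNA precursors before the poly(A) tail is added. There was no strain with Rna15 tagged alone and none without rapamycin, so the double depletion differs from the group labelled WT by both tags.

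Stress genes of this kind are switched on mainly by the transcription factors Msn2 and Msn4, which bind a short DNA sequence called the stress response element and are held in the cytoplasm while protein kinase A and TORC1 signalling is active. Several heat shock protein genes are also driven by the heat shock factor Hsf1, which binds heat shock elements. The products fold, disaggregate or protect proteins and membranes, remove peroxides or reactive aldehydes, or adapt respiration.

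The strain genes were read first as a check of the labels. FPR1 was listed in the group labelled WT with 30 reads, a signal of 1.29, although the label gives its deletion, and it was not listed in either depletion. No ends inside FPR1 were listed there, and the source of these few reads was not tested. The listed ends lie past the gene, so they do not show whether the gene itself was present. The label could not be checked by them, and every comparison with the group labelled WT below carries that limit. Downstream ends of BDP1 had a signal of 12.8 in the group labelled WT and were not listed in the other groups. Those of RNA15 had 16.3 there, 7.29 in Bdp1AA and none listed in the double depletion, where RNA15 was listed with ends inside the gene at a signal of 29.0.

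Signal is the deposited, scaled number of read ends at a position. It was summed over positions past the annotated gene end that reached 0.83413, the lowest value all 3 tables can show, which left 22048431 reads in the group labelled WT, 14096898 in Bdp1AA and 7020861 in the double depletion. The 3 libraries of each group share a single deposited column, so the spread between libraries is unknown and no test was run. The intervals below are exact 95% intervals of read counts and cover counting error only. Signal is relative to the other RNAs of a table, and a larger share of cells with a transcript cannot be told apart from more transcript in each cell.

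The sequence before the coding region carries the elements named above, and it is printed for HSP12 and DDR2, which had the highest signal ratios in the double depletion, and for HSP104, the most abundant of the 10 in the other groups. The 300 bases run from 350 to 51 bases before the start of the coding sequence in the R64 genome, 5′ to 3′ on the strand of the gene. They are chrVI:106906-107205 on the plus strand for HSP12, chrXV:231806-232105 on the minus strand for DDR2 and chrXII:88273-88572 on the plus strand for HSP104. Capitals mark the stress response element, searched as AGGGG or its reverse complement CCCCT.
HSP12: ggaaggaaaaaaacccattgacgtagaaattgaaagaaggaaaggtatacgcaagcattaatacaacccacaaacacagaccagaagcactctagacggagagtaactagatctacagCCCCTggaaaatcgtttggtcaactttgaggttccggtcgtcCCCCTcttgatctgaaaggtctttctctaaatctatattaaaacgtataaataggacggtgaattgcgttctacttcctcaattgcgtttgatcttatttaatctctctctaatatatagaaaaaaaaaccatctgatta
DDR2: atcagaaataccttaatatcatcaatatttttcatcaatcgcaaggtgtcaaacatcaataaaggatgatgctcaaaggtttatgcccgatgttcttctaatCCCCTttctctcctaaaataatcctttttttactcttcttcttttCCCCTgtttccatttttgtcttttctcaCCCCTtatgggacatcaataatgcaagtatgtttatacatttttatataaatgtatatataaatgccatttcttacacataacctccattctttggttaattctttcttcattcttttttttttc
HSP104: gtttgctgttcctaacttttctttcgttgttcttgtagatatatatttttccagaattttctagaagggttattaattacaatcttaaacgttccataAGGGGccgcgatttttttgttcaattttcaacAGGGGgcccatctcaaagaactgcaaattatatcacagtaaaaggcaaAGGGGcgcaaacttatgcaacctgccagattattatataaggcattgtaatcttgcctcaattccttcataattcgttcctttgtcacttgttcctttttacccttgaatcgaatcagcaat

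All 10 genes had at least 1 stress response element in this window, against 22.9% of the 6001 windows of protein-coding genes. At least 2 were found in 6 of the 10 genes and in 3.83% of all windows, and at least 3 in DDR2, CYC7, HSP78 and HSP104 and in 0.667% of all windows. HSP12 had 2, beginning 232 and 190 bases before the coding sequence. A heat shock element core, GAANNTTC or TTCNNGAA on either strand with overlapping matches counted, was found in HSP31, CTT1, HSP78 and HSP104 and in 22.9% of all windows. HSP78 and HSP104 each held 3 matches, which overlap, and 0.783% of all windows held at least 3, overlapping or not. Both genes encode Hsp100 disaggregases, HSP104 in the cytosol and HSP78 in mitochondria. These matches are descriptions of letters, and a window without one says nothing about the factor.

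**Figure D1:**
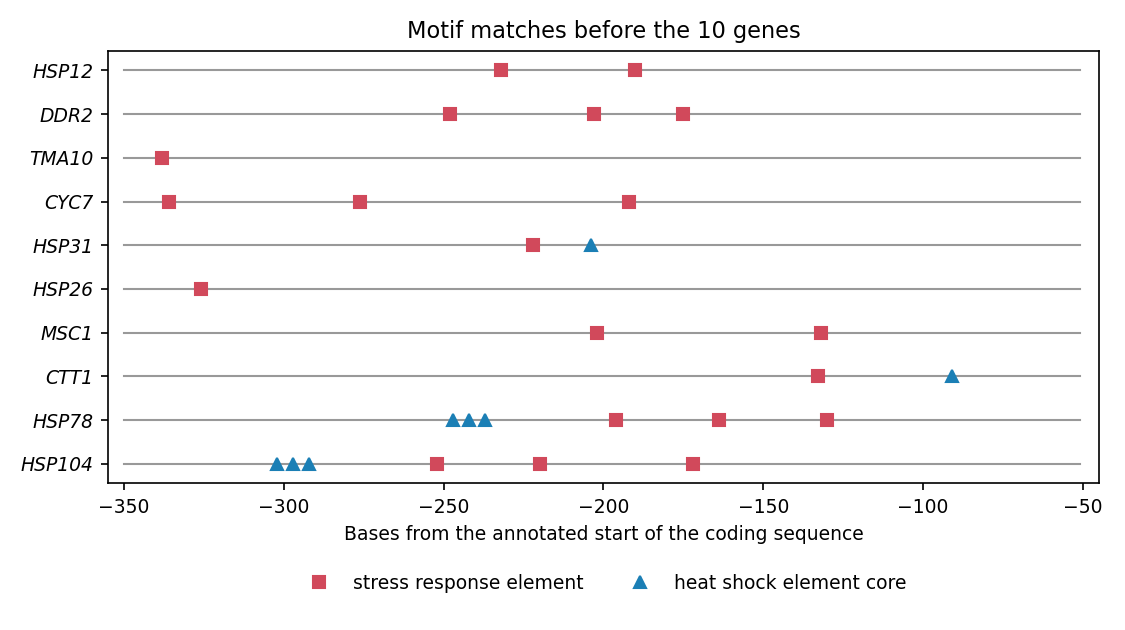
Matches to the stress response element (squares) and the heat shock element core (triangles) in the window from 350 to 51 bases before each coding sequence; the x axis is the distance in bases. Each of the 10 genes has at least 1 square, and HSP78 and HSP104 have 3 of each symbol.

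HSP12 (YFL014W, chrVI:107256-107585, plus strand) encodes a small membrane-associated heat shock protein that protects cells during drying and freezing. Its downstream signal was 24.6 in the group labelled WT (572 reads), 41.9 in Bdp1AA (823 reads) and 1269 in the double depletion (16730 reads). The double depletion stood far above the other groups, and no counting intervals overlapped. Gene coordinates here are those of the tables, which equal the R64 annotation. HSP12 made up 0.00259% of the downstream signal of the WT table and 0.238% of that of the double depletion. DDR2 (YOL052C-A, chrXV:231570-231755, minus strand) encodes a small protein first described as responsive to DNA damage and induced by many stresses. It had a signal of 27.6 in the group labelled WT, 42.8 in Bdp1AA and 495 in the double depletion, from 642, 840 and 6530 reads, the same order as for HSP12.

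TMA10 (YLR327C, chrXII:783127-783387, minus strand) encodes a small ribosome-associated protein. Its signal was 40.1 in the group labelled WT, 91.5 in Bdp1AA and 341 in the double depletion, from 935, 1795 and 4492 reads. CYC7 (YEL039C, chrV:79636-79977, minus strand) encodes the minor, stress- and hypoxia-responsive form of cytochrome c. It stood at 16.1 in the group labelled WT, 54.4 in Bdp1AA and 108 in the double depletion, from 374, 1067 and 1424 reads. Both genes were thus lowest in the group labelled WT and highest in the double depletion, without overlap of the counting intervals. HSP26 (YBR072W, chrII:382030-382674, plus strand) encodes the small heat shock protein that forms large oligomers and holds unfolded proteins. Its signal was 37.2, 40.3 and 104 in the same order, from 867, 790 and 1373 reads. The first 2 of these have overlapping intervals and the double depletion stands above both.

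CTT1 (YGR088W, chrVII:654634-656322, plus strand) encodes the cytosolic catalase T, which breaks down hydrogen peroxide. Its signal was 12.1 in the group labelled WT, 13.2 in Bdp1AA and 43.9 in the double depletion, from 282, 260 and 579 reads. MSC1 (YML128C, chrXIII:15135-16676, minus strand) is a gene of poorly known function named from meiotic recombination. It had 14, 9.68 and 62.8 in the same order, from 326, 190 and 828 reads, lowest in Bdp1AA and highest in the double depletion. HSP31 (YDR533C, chrIV:1501447-1502160, minus strand) encodes a glyoxalase and chaperone of the DJ-1 family, which detoxifies methylglyoxal. Alone among the 10 genes it was lowest in the double depletion, with a signal of 64.8 in the group labelled WT, 134 in Bdp1AA and 26.4 in the double depletion (1509, 2630 and 348 reads).

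The disaggregase genes were the longest of the 10. HSP78 (YDR258C, chrIV:971808-974243, minus strand) had a signal of 90.4, 86.8 and 130.4 in the same order, from 2105, 1703 and 1719 reads, with overlapping intervals in the first 2 groups. HSP104 (YLL026W, chrXII:88623-91349, plus strand) had 465 in the group labelled WT, 247 in Bdp1AA and 427 in the double depletion, from 10827, 4840 and 5634 reads. It was thus lowest in Bdp1AA, and its signal in the double depletion was below that of the group labelled WT on the deposited scale.

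**Figure D2:**
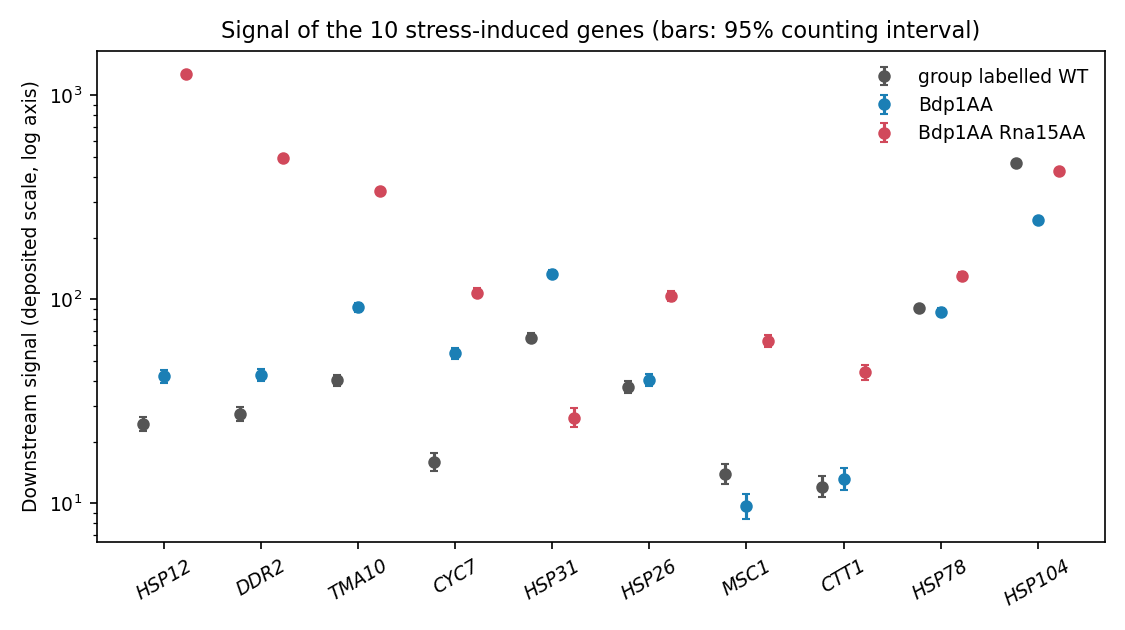
Downstream signal of each gene in each group on the deposited scale (log y axis); bars are 95% counting intervals and each point is 1 pooled column of 3 libraries. HSP12 reaches 1269 in the double depletion from 24.6 in the group labelled WT, and HSP31 is the gene with its lowest value, 26.4, in the double depletion.

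For the comparisons, a feature needed 60 reads or more in each of the tables compared, and log2 ratios are given relative to the median feature. The median log2 ratios subtracted were −0.51 for Bdp1AA against the group labelled WT, −0.34 for the double depletion against Bdp1AA and −0.86 for the double depletion against the group labelled WT. A gene is called higher or lower where this centred ratio passes 2-fold, a limit of size and not a test.

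Bdp1AA against the group labelled WT asks what depletion of Bdp1 is accompanied by. HSP12, DDR2, TMA10, CYC7 and HSP31 were called higher and none of the 10 was called lower, where 6.27% of the 4543 features compared were called higher and 9.95% lower. The log2 ratio was 2.27 for CYC7 (95% counting interval 2.10 to 2.45), 1.70 for TMA10, 1.56 for HSP31, 1.28 for HSP12 and 1.15 for DDR2. The last of these had an interval of 1.00 to 1.30, which reaches the 2-fold limit. HSP26, CTT1 and HSP78 had ratios of 0.63, 0.64 and 0.45, MSC1 was at −0.02 and HSP104 at −0.40. The median of the 10 genes was 0.89, and on the uncentred deposited scale it was 0.38 with 3 called higher (CYC7, TMA10 and HSP31), where 3.08% of features were higher and 24.2% lower, and HSP78 was at −0.06, a change of sign.

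Gene length moved with this comparison. Across 4382 coding genes the Spearman correlation of length with the log2 ratio was −0.64, a description across genes of the same tables, and the median ratio was 0.52 in the shortest sixth and −0.87 in the longest. HSP12, DDR2, TMA10 and CYC7 are among the short genes, at 330, 186, 261 and 342 nt, and HSP104 is the longest of the 10 at 2727 nt. With each length sixth centred on its own median, TMA10, CYC7, HSP31 and HSP78 were called higher, HSP12 and DDR2 were at 0.76 and 0.62, and HSP104 was at 0.46. After this centring 5.46% of all features were higher and 3.41% lower. The calls for HSP12 and DDR2, the call for HSP78 and the sign for HSP104 thus change with this centring, while the median of the 10 was 0.86.

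The double depletion against Bdp1AA adds the Rna15 tag and does not use the group labelled WT, in which FPR1 reads were listed despite the label. In it 8 of the 10 genes were called higher and HSP31 was called lower, where 25% of the 2935 features compared were higher and 25.2% lower. HSP12 had a log2 ratio of 5.26 (95% counting interval 5.15 to 5.36), a 38.2-fold difference and the 5th highest ratio of all features compared. DDR2 had 3.87 (3.76 to 3.97), which is 14.6-fold and rank 15, and MSC1 had 3.03 (2.80 to 3.27), which is rank 51. TMA10, CTT1, HSP26, CYC7 and HSP104 followed at 2.23, 2.06, 1.71, 1.33 and 1.13. HSP78 lay just under the limit at 0.92, with an interval of 0.83 to 1.02. The ratio of HSP31 was −2.01 (−2.17 to −1.85), the opposite direction to the other 9 genes.

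The median of the 10 genes in this comparison was 1.89, and 1.55 on the deposited scale, where 6 were higher and 1 lower, against 17.3% and 33.5% of features, and CYC7 at 0.99 and HSP104 at 0.79 were no longer past 2-fold. Length moved with the ratio in the other direction here, with a Spearman correlation of 0.26 across 2796 coding genes. After centring by length, 7 of the 10 were higher and 1 lower, against 25.5% and 22.8% of features, with HSP104 at 0.64 and CYC7 at 1.98.

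Against the group labelled WT, the double depletion had 8 of the 10 genes called higher and none lower, where 26.1% of the 3003 features compared were higher and 24.6% lower. HSP12 had a log2 ratio of 6.55 (6.43 to 6.67), a 93.5-fold difference and the 2nd highest of all features compared, and DDR2 had 5.02 (4.91 to 5.14), a 32.5-fold difference and rank 8. TMA10, CYC7, MSC1, CTT1, HSP26 and HSP78 had 3.94, 3.60, 3.02, 2.71, 2.34 and 1.38. HSP104 was at 0.73 and HSP31 at −0.44. On the deposited scale HSP31 was at −1.30, past 2-fold lower, and HSP104 was at −0.12, a change of sign. There 7 of the 10 were higher and 1 lower, against 10.5% and 45.8% of features. After centring by length 8 were higher and none lower, against 26.7% and 23.5%. The median of the 10 was 2.87, or 2.01 on the deposited scale. The comparisons share tables, so these values are not separate support for each other.

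**Figure D3:**
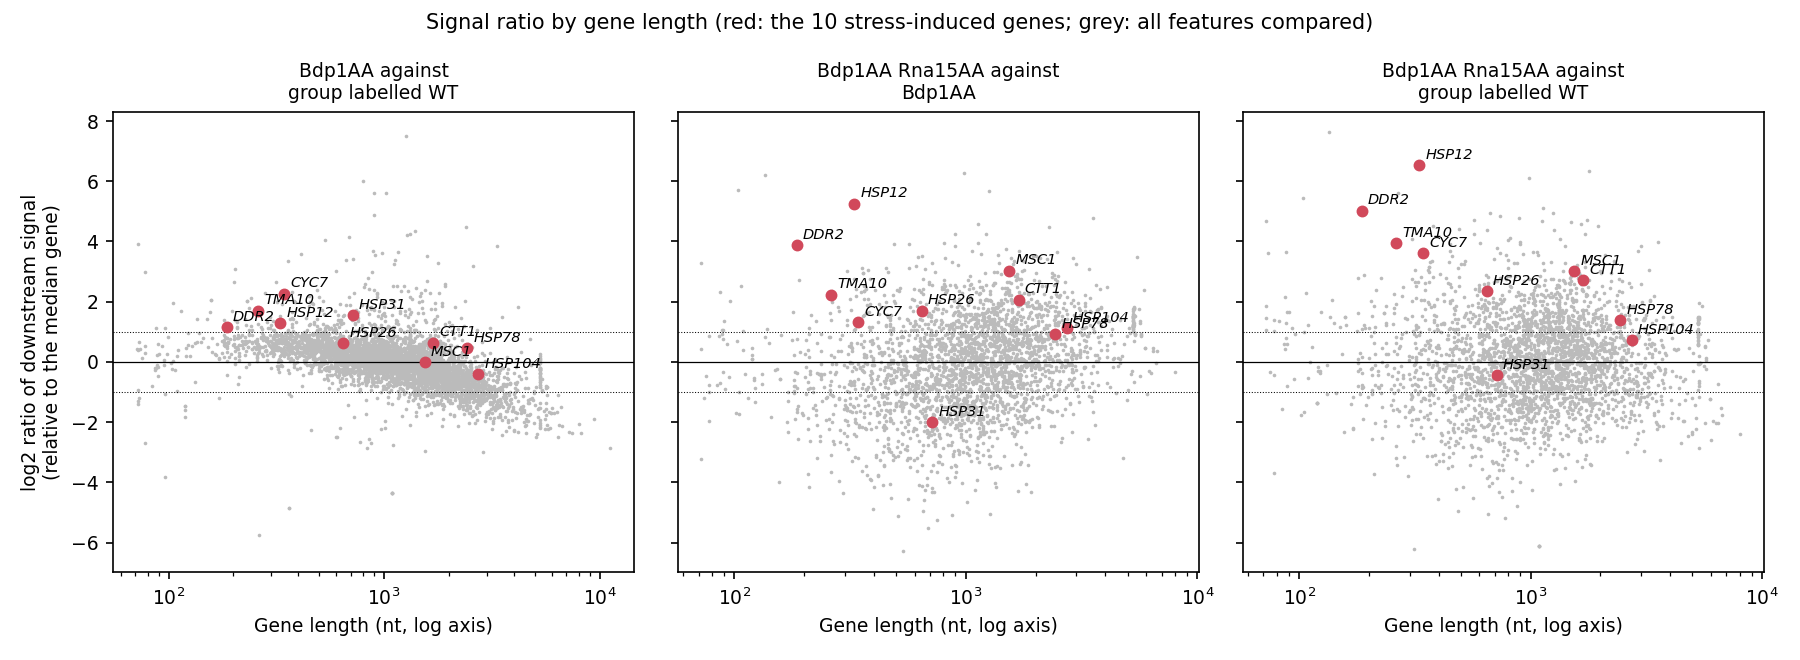
Centred log2 ratio of downstream signal (y axis) against gene length in nt (log x axis) in the 3 comparisons, with the 10 genes in red, all features compared in grey and 2-fold limits dotted. In the left panel the grey cloud falls with length and the short genes of the group lie above 0; in the middle panel HSP12 stands at 5.26 and HSP31 at −2.01.

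The sites at which the transcripts ended are shown next for the genes whose ends carry the results, as 30 bases of the R64 genome, 5′ to 3′ on the gene's strand, with the last aligned base in capitals. HSP12 and DDR2 are shown as the genes with the highest ratios, and for HSP31, CYC7 and HSP104 the site most used in the group labelled WT stands before a site that held a larger share of reads in the double depletion. The number in each name is the distance in nt past the annotated gene end.
HSP12 195 (chrVI:107756-107785, plus strand): attagctgtttttttaaaaaaaaaAattct
DDR2 282 (chrXV:231283-231312, minus strand): gataataatcataattgtgataaaAatatt
HSP31 67 (chrIV:1501375-1501404, minus strand): gatgtaaggaactttaggaggcgtTattga
HSP31 386 (chrIV:1501056-1501085, minus strand): tacataaaactttctaaattttttTttttt
CYC7 106 (chrV:79525-79554, minus strand): catgcgaataaaaagtctatatttAagttc
CYC7 123 (chrV:79508-79537, minus strand): tatatttaagttcttttatttattAataca
HSP104 86 (chrXII:91411-91440, plus strand): taataaaactaatggaatttgtttAattga
HSP104 91 (chrXII:91416-91445, plus strand): aaactaatggaatttgtttaattgAacttg

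HSP12 transcripts ended at the same place in all groups. Their most used position was 195 nt past the gene in every group, with 62.6% of reads in the group labelled WT, 60.4% in Bdp1AA and 56.4% in the double depletion, and the mean end was at 194 nt in each. The capital is base 10 of a run of A in the genome, so the exact last base within that run cannot be told from the tail. Past 196 nt, the farthest position listed in the group labelled WT, ended 8.16% of reads (7.75 to 8.58) in the double depletion and 2.07% in Bdp1AA. At the common minimum a position shows at 20 reads in the group labelled WT, out of 572 for HSP12. Weakly used far positions of genes with few reads there are thus left out. The shares past the farthest position of that group below carry the same limit. The next gene, IES1, lies on the other strand with its near edge 266 nt past HSP12.

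DDR2 likewise ended most often at 282 nt in each group, with 56.4%, 55.1% and 64.3% of reads in the order used above. Its mean end was 274 nt in the group labelled WT and in Bdp1AA and 279 nt in the double depletion. At the common minimum the double depletion alone had a far cluster at 383 to 388 nt, with 24 reads or 0.368%. A share that small would fall below the minimum in the other groups, so its absence there says nothing. The cluster lies within the span of AIM39, the gene on the other strand, whose near edge is 297 nt past DDR2. HSP78 also ended most often at the same position, 112 nt, with 63.1%, 61.6% and 71.4% of reads.

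Most HSP31 reads ended at a farther site in the double depletion. In the group labelled WT 71.7% of reads, and in Bdp1AA 64.8%, ended at 67 nt, in a cluster from 63 to 126 nt that held 92.9% and 90.2% of reads. In the double depletion that cluster held 21.8%, and 272 of 348 reads, 78.2% (73.4 to 82.4), ended between 369 and 400 nt, where neither other table listed an end at the common minimum. The single most used position was still 67 nt, with 18.7% of reads. The mean end was 77.9 nt, 82.6 nt and 314 nt in the same order, a shift of 231 nt against Bdp1AA. The next gene, KRE28, is transcribed in the same direction and begins 893 nt past HSP31. HSP31 was also the gene with lower signal in the double depletion, and whether the position of its ends bears on that signal was not tested.

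Across all features, the 1238 with a distal shift of at least 20 nt in the double depletion against Bdp1AA had a median log2 signal ratio of −0.19, and the other 1697 had 0.13. Among the 10 genes HSP31 and HSP26 passed that limit, where 42.2% of features did. None passed it in Bdp1AA against the group labelled WT, where 2.33% of features did. Against the group labelled WT, the double depletion had the limit passed by HSP31, HSP26 and MSC1, where 41.9% of features did. By the most used position in place of the mean, none of the 10 passed the limit in either comparison. HSP31 was the only one of the 10 with at least 20 percentage points of its reads in other end clusters, where 27.1% of features had this against Bdp1AA and 26.6% against the group labelled WT; with ends joined within 10 nt, TMA10 and MSC1 also had it. In Bdp1AA against the group labelled WT none of the 10 had it, where 1.52% of features did. No gene of the 10 shifted by 20 nt toward the gene in any comparison, where 0.902%, 1.26% and 1.17% of features did in the order used above. The median shift of the 10 genes against Bdp1AA was 14.5 nt and that of all features 12.6 nt.

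The shift of HSP26 rested on few reads. Its mean end moved from 161 nt in Bdp1AA to 189 nt, a shift of 27.9 nt, but 11 reads lay at 3377 nt, which is 63 nt past the gene RDH54 downstream, and with ends within 500 nt alone the shift was 2.19 nt. Its most used position was 166 nt in every group. Listed MSC1 ends were spread more widely in the double depletion. Position 182 nt held 72.7% of reads in the group labelled WT, 75.3% in Bdp1AA and 37.1% in the double depletion, where 39.3% (35.9 to 42.7) ended past 187 nt, the farthest position listed in the group labelled WT, and up to 251 nt. At the common minimum a position shows at 17 reads in Bdp1AA, out of 190 for MSC1, and at 11 in the double depletion, out of 828. No position past 187 nt held more than 7.13% of reads in the double depletion, too small a share to reach that minimum in Bdp1AA. The deposited values of Bdp1AA go down to 2 reads, and with the minimum as deposited its MSC1 signal was 13.0 in place of 9.68. The shares at 182 nt are thus of ends at the common minimum only. How far that minimum sets the difference in shares was not tested.

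CYC7, CTT1, TMA10 and HSP104 moved by less than 20 nt. The most used position of CYC7 was 106 nt in the group labelled WT and in Bdp1AA and 123 nt in the double depletion, and 17.3% of its reads there ended past 123 nt. CTT1 went from 74 nt to 86 nt in the same way. TMA10 ended most often at 161 nt throughout, with 48.1%, 41.3% and 34.7% of reads, and position 181 nt held 103, 172 and 1316 reads. HSP104 ended most often at 86 nt in the group labelled WT and in Bdp1AA and at 91 nt in the double depletion, and 7.49% of its reads there ended past 124 nt, the farthest listed in the group labelled WT. Among these, 39 reads ended at 1194 to 1197 nt, directly before a proline tRNA gene that begins 1198 nt past HSP104.

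**Figure D4:**
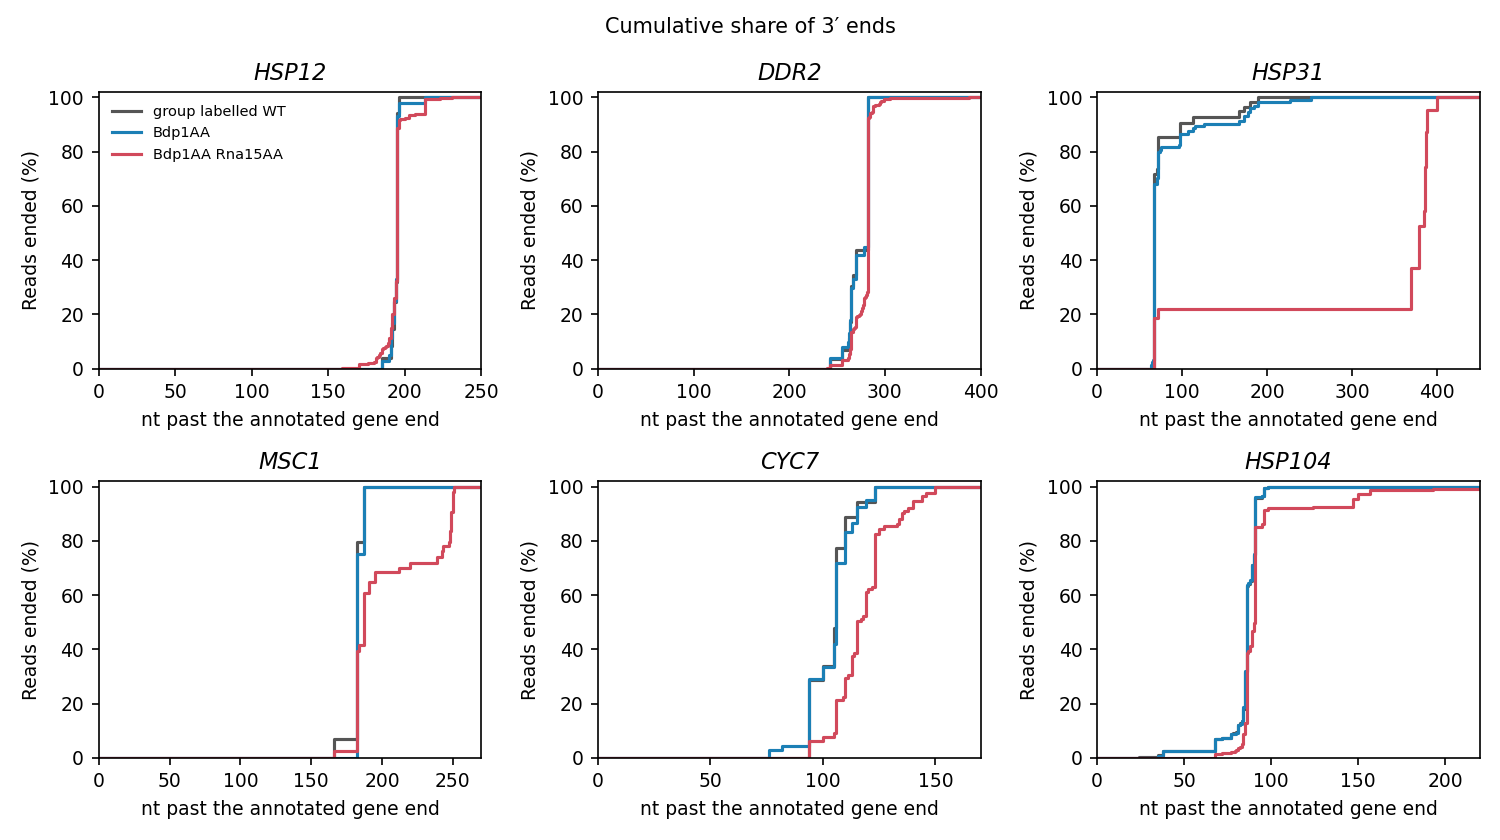
Cumulative share of downstream reads (percent, y axis) by distance past the annotated gene end in nt (x axis) for 6 of the genes in the 3 groups; ends of HSP104 at 861 nt and at 1194 to 1197 nt lie beyond its axis. The HSP31 curve of the double depletion reaches 21.8% at the near site and climbs again from 369 nt, while the HSP12 curves rise together at 195 nt.

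In the 80 bases before the most used site of the group labelled WT, TATATA was found for 8 of the 10 genes, all but CTT1 and CYC7, and for 46.4% of 5041 genes. AATAAA, an A-rich element of yeast 3′ ends, was found for 4 of the 10 and for 18.8% of these genes, both searched on the strand of the gene. These letters are descriptions and not mapped binding sites.

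Reads of genes lying upstream also ended at the sites of these genes in the double depletion, and none did in the other groups at this minimum. At the 112 nt site of HSP78, 15 reads belonged to YAP6, which is 41.7% of its downstream reads. At the 282 nt site of DDR2, 33 reads belonged to SPE2, 18.5% of its own. HSP26 received 69 reads of YBR071W at 166 nt and 12 at 160 nt, HSP104 13 of ISA1 at 91 nt and HSP12 15 of YFL015W-A at 195 nt. Set against all downstream reads of the receiving gene, those at a single position were at most 5.03% (HSP26 at 166 nt) and as little as 0.0897% (HSP12).

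The closest relatives of the 10 genes were read for comparison, and the differences between relatives were not tested. HOR7, the paralog of DDR2, was far more abundant, with a signal of 2208 in the group labelled WT, 4068 in Bdp1AA and 3779 in the double depletion. Its log2 ratio was 1.39 in Bdp1AA against the group labelled WT and 0.23 in the double depletion against Bdp1AA, where DDR2 had 3.87. CYC1, the major cytochrome c gene, had a signal of 526, 1054 and 537 in the same order, with log2 ratios of 1.51 in the first comparison and −0.64 in the second. STF2, the paralog of TMA10 and a factor of the mitochondrial ATP synthase that also protects during drying, had 250.5, 271 and 57.3, and log2 ratios of 0.63 and −1.91. These are short genes, and after centring by length HOR7 was at 0.87 and 0.88 in the same comparisons. CYC1 was then at 0.99 and 0.01 and STF2 at 0.10 and −1.26, so HOR7 and CYC1 were not past 2-fold.

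HSP42, the other small heat shock protein gene beside HSP26, had log2 ratios of −0.22 in Bdp1AA against the group labelled WT and 0.85 in the double depletion against Bdp1AA. CTA1, the peroxisomal catalase gene, was listed downstream in the double depletion alone, at a signal of 1.82, and the group labelled WT listed ends inside it at a signal of 4.34. HSP32, HSP33 and SNO4, relatives of HSP31 that are near-identical to each other, were likewise listed downstream in the double depletion alone at this minimum. Their signals were 7.05, 6.98 and 7.89. Reads could be divided among HSP32, HSP33 and SNO4, so their values are uncertain.

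The 10 genes were set beside lists of other stress genes. The lists share HSP42 and SSA4 (general stress and Hsf1 target chaperones) and SOD2 and PRX1 (general stress and antioxidant). Of all features compared, 6.27% were called higher and 9.95% lower in Bdp1AA against the group labelled WT. In the double depletion the shares were 25% and 25.2% against Bdp1AA, and 26.1% and 24.6% against the group labelled WT. Of 42 further general stress genes, 31 could be compared in Bdp1AA against the group labelled WT, with 4 higher, none lower and a median log2 ratio of 0.34. HOR7 at 1.39 and SPI1, a cell wall protein gene, at 1.23 were highest, and TSL1, of trehalose synthesis, at −0.62 and OM45, of the mitochondrial outer membrane, at −0.45 were lowest. After centring by length 2 were higher and none lower, with a median of 0.33. HOR7 was then at 0.87, SPI1 at 0.71, TSL1 at 0.25 and OM45 at −0.37. Of the 42 genes, 29 were compared in the double depletion against Bdp1AA, with 9 higher, 5 lower and a median of 0.23. PRX1, a mitochondrial peroxiredoxin gene, at 2.43 and RTC3 at 2.41 were highest there, and CMK2, a calmodulin-dependent kinase gene, at −4.16 and DDR48 at −2.78 were lowest. In the third comparison, against the group labelled WT, 14 of 32 were higher and 5 lower, with a median of 0.73, PRX1 at 3.56 and AMS1, the vacuolar mannosidase gene, at 3.06 highest and CMK2 at −4.04 and DDR48 at −1.59 lowest. On the deposited scale these medians were −0.17, −0.11 and −0.13, the opposite sign. Then none were higher and 1 lower, 8 higher and 7 lower, and 5 higher and 10 lower. Of all features, 3.08% were higher and 24.2% lower on that scale in the first comparison, 17.3% and 33.5% in the second, and 10.5% and 45.8% in the last. More lower than higher calls in the first and last comparison were thus shared with all features.

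Antioxidant genes had medians of 0.67 over 16 genes, 0.42 over 13 and 0.84 over 13 in the 3 comparisons. PRX1 at 1.12 and GPX1, a glutathione peroxidase gene, at 1.09 were called higher in Bdp1AA and none was lower. GLR1 at −0.00 and AHP1 at 0.02 were lowest. After centring by length none was called in this comparison, with PRX1 at 0.86, GPX1 at 0.56 and a median of 0.36. In the double depletion against Bdp1AA 4 were higher, led by PRX1 at 2.43 and TRX2, a thioredoxin gene, at 2.08, and 3 were lower, led by GRX1, a glutaredoxin gene, at −1.89 and SOD2, mitochondrial superoxide dismutase, at −1.57. Against the group labelled WT 4 were higher and 1 lower, with PRX1 at 3.56 and TRX2 at 3.06 highest and SOD2 at −1.20 and GRX1 at −0.97 lowest. On the deposited scale the medians were 0.16, 0.09 and −0.01, with none called in the first comparison, 2 higher and 4 lower in the second, and 3 higher and 4 lower in the last.

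Hsf1 target chaperones had a median of −0.22 over 20 genes in Bdp1AA against the group labelled WT, with none called in either direction; HSP10 at 0.49 and MBF1 at 0.46 were highest and BTN2 at −0.75 and SSA2 at −0.66 lowest. Against Bdp1AA, 3 of 19 were higher and 3 lower in the double depletion, with a median of 0.36. MDJ1, a mitochondrial Hsp40 gene, at 2.64 and HSP82, an Hsp90 gene, at 1.34 were highest, and the Hsp90 cochaperone genes HCH1 at −2.54 and STI1 at −1.48 were lowest. Against the group labelled WT these 4 genes were again the extremes, at 2.59, 1.08, −2.28 and −2.08, with 2 higher, 2 lower and a median of 0.35. On the deposited scale the medians were −0.73, 0.03 and −0.50, with 0 higher and 5 lower, 2 higher and 3 lower, and 1 higher and 8 lower.

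Of 18 regulators of the response, 15 could be compared in Bdp1AA against the group labelled WT, with a median of −0.08. HSF1 at −1.10 was the 1 called, lower. GIS1 at −0.89 was next, and MSN4 at 0.48 and ROX1 at 0.29 were highest. After centring by length none was called in either direction, with HSF1 at −0.24, GIS1 at −0.03 and a median of 0.09. In the double depletion against Bdp1AA 10 were compared, with 3 higher, 1 lower and a median of 0.10. YAP1, the oxidative stress activator, at 1.81 and MSN2 at 1.49 were highest, and HOG1, the kinase of the osmotic response, at −1.82 and PSR1 at −0.12 were lowest. The median against the group labelled WT was 0.06, with 2 higher and 1 lower, YAP1 at 1.75 and BCY1, the inhibitory subunit of protein kinase A, at 1.37 highest and HOG1 at −1.75 and TPK3, a catalytic subunit, at −0.54 lowest. The deposited scale gave medians of −0.60, −0.23 and −0.79, with 0 higher and 4 lower, 2 higher and 1 lower, and 0 higher and 4 lower. The 10 genes had higher medians than each of these lists in all 3 comparisons, which describes genes chosen for being induced and was not tested. This did not hold for the paralogs above, of which 4 could be compared. Their median was 1.01 in Bdp1AA against the group labelled WT, above the 0.89 of the 10 genes. After centring by length it was 0.49, below the 0.86 of the 10 genes. Without that centring, the paralog median in the double depletion was −0.20 against Bdp1AA and 0.76 against the group labelled WT.

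**Figure D5:**
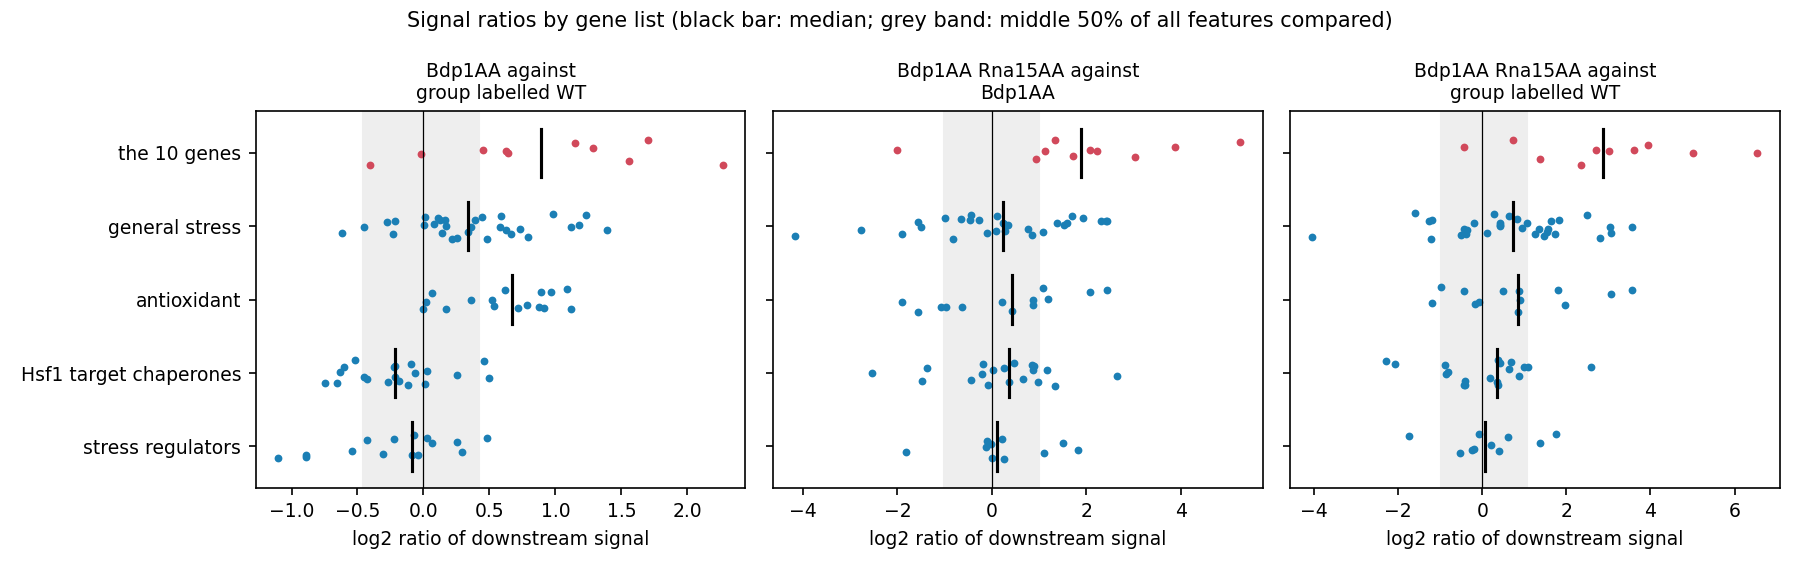
Centred log2 ratios of downstream signal (x axis) for the 10 genes in red and for the other stress gene lists in blue; each dot is 1 gene, black bars are medians and the grey band holds the middle 50% of all features compared. The median of the 10 genes is 0.89, 1.89 and 2.87 from left to right, and that of the regulators −0.08, 0.10 and 0.06.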

How the data were processed

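The authors deposited, for each group, a table of genes and 3′ end positions with a signal, a scaled number of read ends in which 3 libraries are pooled in 1 column. The genome build was R64, per the submitters' processing notes. For the aligner, the gene assignment, the versions and the scale, nothing is given in the sources read. Every listed value was a whole multiple, within 0.001 of a read, of a step of 0.0429 in the group labelled WT, 0.0510 in Bdp1AA and 0.0758 in the double depletion, taken as the signal of 1 read. The tables listed 24559388, 16661847 and 7740285 reads, and the common minimum equals 20, 17 and 11 reads at a position.

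Distances were recomputed from coordinates, and the last aligned base was placed from the base composition around the ends. Ends downstream of genes were summed per gene, compared at 60 reads or more, and called at 2-fold, at a shift of 20 nt in mean end position, and at 20 percentage points between clusters of ends joined within 25 nt and holding at least 10 reads. Length centring used 6 equal groups of genes. Python 3.11.15, pandas 2.3.3, numpy 2.4.6, scipy 1.17.1 and matplotlib 3.10.9 were used. The procedure was also run on counts drawn from the Bdp1AA ends with known changes. Such draws hold no spread between libraries, so the run says nothing about that spread. The planned values with counting intervals replaced tests, as each group is 1 column. The members, gene lists and windows were chosen with earlier results of these data known. The genes named are the 10 members, their paralogs, the strain genes, the gene downstream and up to 4 genes of each list, the 2 highest and 2 lowest ratios; genes outside these were named after their values were seen. The alternatives were other scales, limits, minimums, windows, position measures and assignments of reads. Some site sequences are not reported here.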

Additional observations from a re-analysis of the deposited data

Results flagged for a closer look

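The comparisons used ends past the gene, and signal also appeared inside HSP78, the mitochondrial disaggregase gene. In the double depletion 97 reads at 3 positions, 5.34% of its downstream and inside reads (95% counting interval 4.35 to 6.48), ended between positions −1025 and −223 nt, counted from the end of the gene. Of these, 65 ended at −1025 nt. Neither the group labelled WT nor Bdp1AA listed an end inside HSP78 at the common minimum. Ends inside genes are listed for the minus strand alone, and the other 5 minus-strand genes of the 10 had none at this minimum in any group.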

How the results depend on the processing

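Of the counts that answer a comparison, 131 alternative values stayed equal to or within 1.5-fold of the count given and 16 moved further. A change from 5 to 7 genes thus counts as having stayed. Of the values of single genes 500 stayed and 186 moved. A log2 ratio stayed if it lay within its counting interval, a shift if it changed by under 5 nt, and site usage if it changed by under 5 percentage points. Alternatives that changed the calling limit alone leave single-gene values the same by construction, so the 500 overstate the stability. No value past its limit changed sign. Among log2 ratios short of 2-fold, HSP104 turned from −0.40 to 0.46 with length centring in Bdp1AA against the group labelled WT and from 0.73 to −0.12 on the deposited scale in the double depletion against that group. In the first of these comparisons HSP78 turned from 0.45 to −0.06 on the deposited scale, and MSC1, at −0.02, was above 0 in 4 alternatives, up to 0.29. Some mean end shifts of under 5 nt also changed sign. On the deposited scale the genes higher in Bdp1AA against the group labelled WT fell from 5 to 3, and 1 instead of 0 was lower in the double depletion against that group. Distal shifts in the double depletion against Bdp1AA, 2 in the text, numbered 1 by median position, with the minimum doubled, with reads given to the nearest gene or with ends within 500 nt, 0 by the most used position, 6 at a limit of 10 nt and 3 with the minimum as deposited. Against the group labelled WT the 3 became 1 by median position or with the minimum doubled, 0 by the most used position and 6 at 10 nt. Site usage calls, 1 in the text, numbered 3 with ends joined within 10 nt (HSP31, TMA10 and MSC1) and 2 with the minimum doubled (HSP31 and MSC1) in both these comparisons. Leaving out positions shared between genes was added after seeing the data. The log2 ratio against Bdp1AA ranged over the alternatives from 4.92 to 5.91 for HSP12, from 3.53 to 4.52 for DDR2 and from −2.34 to −1.56 for HSP31. Read depth limits the far ends of CTT1 and MSC1, which have fewest reads. Leaving out replicates could not be run. No paired analysis was possible because each group is 1 pooled column and the columns carry no replicate number.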
